A study of Mus musculus with 4 samples.

Results

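Cytosolic chaperones were followed in 3T3-L1 cells with and without berberine, a plant alkaloid. 3T3-L1, an established mouse line of fat cell precursors, becomes adipocytes when a hormone mixture is added. The list held 43 genes for HSP70, HSP110, small heat shock, HSP90, DNAJ, BAG and CCT proteins and the heat shock factors. Genes were selected by name, through the symbol that the array's annotation gives to each probe, with no threshold on measured values. Earlier results of these data were known when the list was drawn up. A probe was found for 40 of the 43, out of 17770 genes with a named probe, and 46 probes carried these symbols. Hspa8, Cryab and Hsp90aa1 were not analysed here. All 4 samples had 48 hours of induction with insulin (1 µg/ml), dexamethasone (1 µM) and isobutylmethylxanthine (0.5 mM), so the controls carry the induction too. The 2 control samples had nothing further, and the 2 berberine samples had 13.47 µM berberine during the induction. Each sample was read on its own 1-colour array. The comparison asks how berberine changes expression while differentiation is being induced, and an uninduced group was not analysed here. The labels do not say that samples of a group came from separate cultures, so the p-values rest on array-to-array spread that may be technical.

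Molecular chaperones bind proteins that are unfolded or still being made and help them to fold, to be rebuilt after stress or to be passed on for destruction. HSP70 proteins work in cycles of ATP binding, driven by DNAJ partners and reset by nucleotide exchange factors of the BAG and HSP110 families, and can hand a client on to HSP90. The CCT chaperonin is a double ring of related subunits that folds actin and tubulin, and heat shock factors are the transcription factors that switch many of these genes on under stress. In fat cell precursors, HSP90 also holds steroid receptors such as the glucocorticoid receptor, the target of dexamethasone, in a state that can bind hormone.

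The chaperone genes did not move as 1 group. With berberine, 16 of the 40 genes rose, 6 fell and 18 did not pass (adjusted p under 0.05, 1 probe per gene). Over all genes measured, 30.0% were called higher and 18.1% lower, against these 16 and 6 of 40. The same shares are the background for each count by family or list below. Among genes with a mean above log2 10, where 35 of the 40 lay, 37.8% were called higher and 22.5% lower, against 42.9% and 17.1% of these 35. The shares of called chaperone genes were thus near those of other genes of like signal, and the results lie in which members moved and how far. The median log2 change (berberine minus control) was 0.40 over the 40 genes and 0.20 over all genes. The values of both berberine arrays lay above both control values for 23 members and below them for 9, and overlapped for 8; over all genes these shares were 49.2% higher and 28.2% lower. A rise of at least 2-fold was met by 9 members and a fall of that size by 4, against 12.8% and 11.5% of all genes. These shares were not taken among genes of like signal, so the 9 and 4 are not read as an excess or deficit. Bag4, whose 2 probes were called in opposite directions, is among the 9. Without berberine replicate 1 or 2, 5 members were called higher and 4 lower in either case. The 9 that stayed past the threshold under every alternative run were Hspa2, Hspa4l, Hsf1, Hsf2 and Tcp1, which rose, and Hspb8, Stip1, Ahsa1 and Cct3, which fell. Each of these 9 has 1 probe, so averaging of probes did not apply to them. Every run used that same probe and could not show whether a change belongs to the probe alone.

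**Figure D1:**
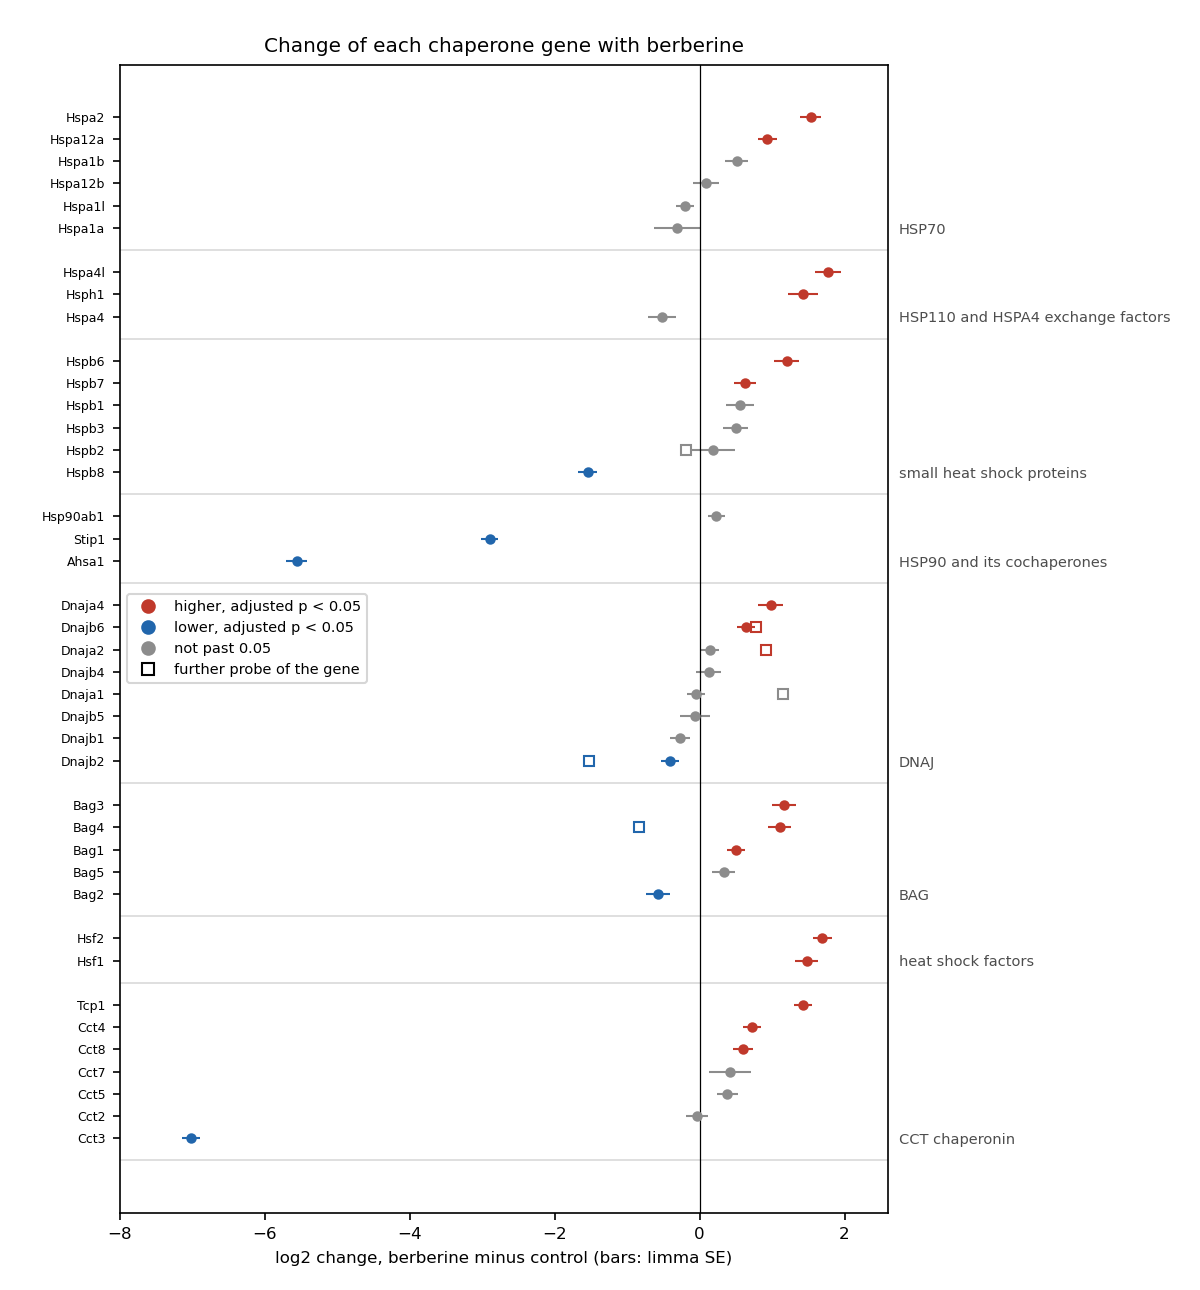
Log2 change with berberine of each measured chaperone gene, grouped by family, with limma standard errors as bars; colour gives the call and open squares are further probes of the same gene. Most genes lie within 2 log2 units of 0, while Cct3 (-7.02), Ahsa1 (-5.56) and Stip1 (-2.90) lie far to the left.

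Signal levels are quantile-normalized log2 intensities. Apart from the marker sums below, which add linear levels of different probes, a value is compared only within its own probe. Values under 6.58 on log2, the 25th percentile of all normalized values, were taken as background and that limit is called the floor. Of the 40 genes, 38 were above it on at least 2 arrays. The normalized arrays correlated across probes at r = 0.991 within the controls, 0.994 within berberine and 0.912 to 0.918 between groups. The labelled cell type was checked against markers. In the fibroblast and preadipocyte list the 8 markers measured were all above the floor in at least 1 group, and its summed level was 18.37 to 18.38 on log2 in control and 18.09 to 18.10 with berberine. Vim (17.08 to 17.34 on all arrays) was the largest single part of that sum. Of the 8 markers 3 rose and 4 fell, with Fn1 at least 326-fold lower, Dlk1 3.09-fold lower at its brighter probe and Col1a1 2.81-fold higher. The dimmer Dlk1 probe had overlapping groups and did not pass (log2 change -0.20, adjusted p = 0.355). Mature adipocyte markers moved with the treatment: their summed level was 19.10 and 19.16 in control and 14.89 and 14.99 with berberine, and 6 of 9 fell and 1, Pparg, was called higher with both groups under the floor. Fewer fat cells and less of these RNAs per cell cannot be told apart in bulk samples, and the part of this shift in the chaperone changes was not tested. The summed leukocyte list (4 of 6 measured) was at 12.51 to 12.66 in control and 12.98 with berberine, nearly all of it from Cd3e, with Emr1 under the floor and Ptprc at 8.20 to 8.45. The endothelial list (4 of 4 measured, 2 called higher) summed to 9.63 and 9.73 in control and 10.27 and 10.18 with berberine, with Cdh5 up 2.43-fold. The epithelial list (3 of 4, 1 called lower) summed to 9.48 and 9.56 in control and 8.74 and 8.82 with berberine, with Krt18 at least 2.66-fold lower. The skeletal muscle list (4 of 8, 2 called higher) summed to 10.42 to 10.71 in control and 11.33 to 11.37 with berberine, with Ckm under the floor. No marker list was tested as a cause.

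Both heat shock factors rose. Hsf1, the main activator of the heat shock response, read 12.63 and 12.91 on the control arrays and 14.33 and 14.17 with berberine. The groups did not overlap, and the rise was 2.78-fold (log2 change 1.48, SE 0.16, adjusted p = 0.00208). Hsf2, a second factor active in development, which can act together with Hsf1, read 9.44 and 9.51 in control and 11.09 and 11.25 with berberine, a 3.23-fold rise (log2 change 1.69, SE 0.13, adjusted p = 0.000829). Each has 1 probe here. Array data give the RNA of these factors and not their activity, which is set largely by trimer formation and modification of the protein.

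Heat shock factors bind inverted repeats of the block GAA. Upstream sequence from RefSeq (GRCm38.p6) was searched for these blocks to show which members carry them. The motif of 2 blocks was GAANNTTC or TTCNNGAA, and the motif of 3 blocks was GAANNTTCNNGAA or TTCNNGAANNTTC, which contains both shorter forms overlapping. Each form pairs with itself or its partner on the other strand, so both strands were covered. The 250 bases before each start site were searched for the 35 listed genes with an entry. The motif of 2 blocks was found for 12 of the 35 genes (34.3%), against 14.5% of 27025 genes in the table, and the motif of 3 blocks for 1, Dnajb6, against 0.514%. The motif was also in Cct2, Cct5, Dnaja1, Dnajb4, Hspa1a and Hspb3, whose sequences are not printed. Of the 12 genes 4 rose and 8 did not pass, and of the 23 without it 9 rose, 6 fell and 8 did not pass. Over all genes 30.0% were called higher and 18.1% lower. A link between motif and change was not tested. The 23 include Dnajb1 and Bag3, described below as stress- or heat-inducible. The search took in no other form or spacing of the blocks and nothing beyond 250 bases. Hsf1, Hsp90ab1, Hspb2, Bag4 and Cct4 were measured but had no entry. A match is a description of the letters only. The sequences are stretches of 120 bases on the gene's strand, 5′ to 3′, with matched blocks in capitals, for 4 members that rose and have a match (Hsph1, Dnajb6, Dnaja4 and Hspb6) and 2 textbook heat shock genes that did not pass (Hspb1 and Hspa1b).
Hsph1, chr5:149636337-149636456, minus strand: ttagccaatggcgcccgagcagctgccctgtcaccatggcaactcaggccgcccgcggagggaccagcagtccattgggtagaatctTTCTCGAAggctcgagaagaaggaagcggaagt
Dnajb6, chr5:29735778-29735897, plus strand: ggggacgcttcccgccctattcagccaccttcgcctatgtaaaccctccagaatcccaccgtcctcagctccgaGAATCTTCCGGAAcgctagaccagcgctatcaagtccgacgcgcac
Dnaja4, chr9:54699435-54699554, plus strand: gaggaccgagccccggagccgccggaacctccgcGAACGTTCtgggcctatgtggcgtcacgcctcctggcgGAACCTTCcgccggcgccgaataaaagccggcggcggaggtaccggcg
Hspb6, chr7:30553109-30553228, plus strand: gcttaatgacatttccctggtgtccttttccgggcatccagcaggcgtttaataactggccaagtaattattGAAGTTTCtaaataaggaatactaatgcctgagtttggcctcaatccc
Hspb1, chr5:135887750-135887869, plus strand: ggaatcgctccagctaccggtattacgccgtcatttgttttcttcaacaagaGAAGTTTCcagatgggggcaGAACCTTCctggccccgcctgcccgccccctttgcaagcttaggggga
Hspa1b, chr17:34959295-34959414, minus strand: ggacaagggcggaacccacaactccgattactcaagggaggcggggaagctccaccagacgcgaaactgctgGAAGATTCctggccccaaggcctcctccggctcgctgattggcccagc

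Counted from the start site, the matched blocks begin at base -33 for Hsph1, -46 for Dnajb6, -90 and -52 for Dnaja4, -120 for Hspb6, -117 and -97 for Hspb1 and -104 for Hspa1b. Dnajb6, Dnaja4, Hspb6 and Hsph1 have more than 1 start site in the table, and the positions are those of the site shown. The 250 bases before Hspa1a differ from those before Hspa1b at 3 positions, and the same match is in both.

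In the HSP70 family, 2 of 6 measured genes rose, 0 fell and 4 did not pass, with a median log2 change of 0.30. Hspa2, an HSP70 best known from male germ cells, read 12.33 and 12.05 in control and 13.70 and 13.74 with berberine. This 2.89-fold rise (log2 change 1.53, SE 0.15, adjusted p = 0.00155) separated the groups on every array. Hspa12a, a distant HSP70 relative, read 10.51 and 10.73 in control and 11.57 and 11.55 with berberine, a 1.91-fold rise (adjusted p = 0.00549) that missed the threshold without berberine replicate 1 (adjusted p = 0.0700) or 2 (0.0651) and in the deposited values (0.107). Hspa1b, the classical stress-inducible HSP70, read 12.88 and 13.20 in control and 13.53 and 13.57 with berberine. Both berberine arrays were higher, and the log2 change of 0.51 (SE 0.16) did not pass (adjusted p = 0.0504), although it did after centring on the median (log2 change 1.21, adjusted p = 0.00405), after 75th percentile scaling (0.95, adjusted p = 0.0175) and without control replicate 2 (0.67, adjusted p = 0.0291). At a log2 change of 0.51 it also passed with log2(value + 16) (adjusted p = 0.0408), with dim probes left out (0.0354) and with an intensity trend and robust prior (0.0393), so the call of Hspa1b turns on small choices. The probe of Hspa1a, its near-identical neighbour, lay under the floor in both groups (6.45 and 6.01, 5.50 and 6.33), so no change can be read there. The 2 genes encode nearly the same protein, and which copy the Hspa1b probe reads is not given in the sources used here. Hspa1l, a testis HSP70 in the same cluster, had a log2 change of -0.20 (adjusted p = 0.259). It was called lower only in the deposited values (-0.83, adjusted p = 0.0414). Hspa12b, the endothelial relative of Hspa12a, had a log2 change of 0.092 (adjusted p = 0.709).

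The HSPA4 and HSP110 proteins, which release ADP from HSP70, had 2 of 3 genes higher and 1 that did not pass. Hspa4l, also called APG-1, was among the listed genes with the largest rises: its probe read 10.73 and 11.07 in control and 12.77 and 12.57 with berberine, a 3.42-fold rise (log2 change 1.77, SE 0.17, adjusted p = 0.00165). Hsph1, which encodes HSP105 and is strongly heat-inducible, read 12.87 and 12.36 in control and 14.10 and 13.98 with berberine. The groups did not overlap and the rise was 2.69-fold (log2 change 1.43, SE 0.20, adjusted p = 0.00510), but it missed the threshold without berberine replicate 1 (adjusted p = 0.0705) or 2 (0.0597). Hspa4, the constitutive member, read 13.52 and 13.92 in control and 13.07 and 13.33 with berberine. Its log2 change of -0.52 did not pass (adjusted p = 0.0842) and was 0.18 after centring on the median.

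Small heat shock proteins, which hold unfolded proteins without using ATP, went both ways: 2 of 6 rose, 1 fell and 3 did not pass. Hspb6, or HSP20, found mainly in muscle, read 13.28 and 13.62 in control and 14.73 and 14.57 with berberine. It rose 2.30-fold (log2 change 1.20, SE 0.17, adjusted p = 0.00474) with no overlap, and missed the threshold without berberine replicate 1 (adjusted p = 0.0667) or 2 (0.0531). Hspb8, which works with Bag3 to send misfolded proteins to autophagy, read 13.97 and 14.14 in control and 12.47 and 12.55 with berberine. It fell 2.91-fold (log2 change -1.54, SE 0.13, adjusted p = 0.00111), the opposite direction to its partner Bag3, described with the BAG genes. Hspb1, or HSP27, read 12.77 and 12.31 in control and 13.04 and 13.16 with berberine, and its log2 change was 0.56 (SE 0.19, adjusted p = 0.0696), short of the threshold. It passed after centring on the median (1.22, adjusted p = 0.0116), after 75th percentile scaling (0.96, adjusted p = 0.0184) and without control replicate 1 (0.79, adjusted p = 0.0304). Hspb7, a heart and muscle member, was dim, at 7.73 and 7.94 in control and 8.58 and 8.35 with berberine. Its 1.55-fold rise (adjusted p = 0.0272) was 0.074 on log2 in the deposited values (adjusted p = 0.853). After 75th percentile scaling it was 0.38 (adjusted p = 0.235). It also missed the threshold without any 1 of the 4 arrays, with log2 changes of 0.51 to 0.75. The muscle genes Hspb2 and Hspb3 were near or under the floor: the brighter Hspb2 probe read 7.79 and 7.03 in control and 7.40 and 7.80 with berberine, and Hspb3 lay under the floor on every array.

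**Figure D2:**
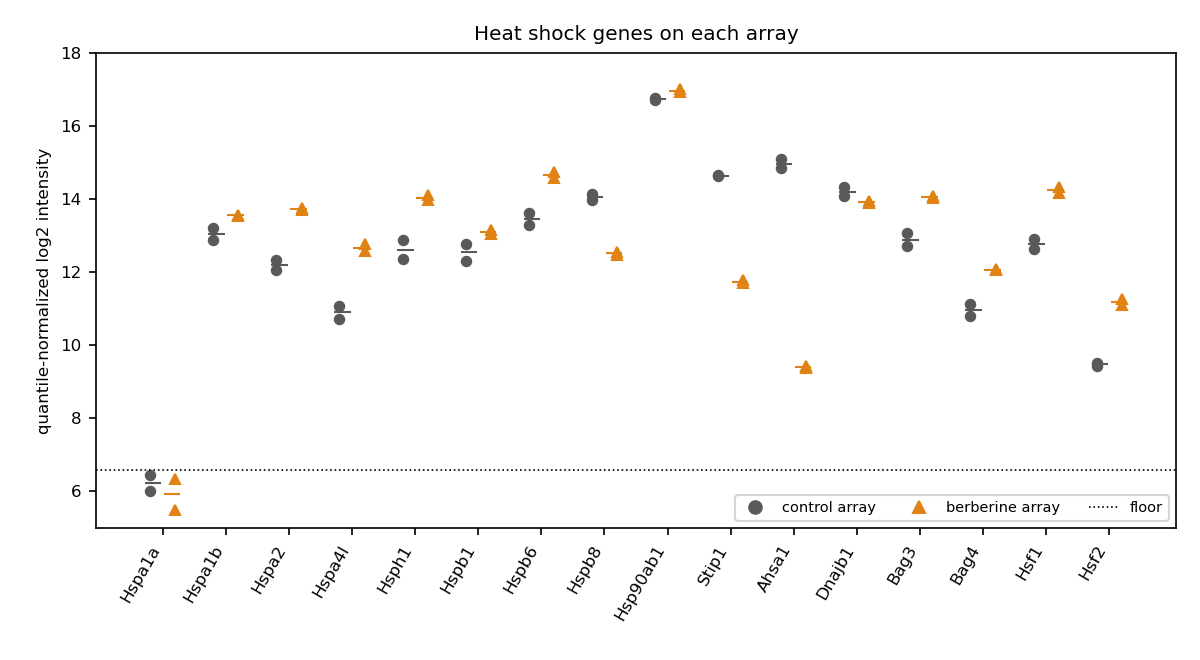
Quantile-normalized log2 intensity on each of the 4 arrays for heat shock genes outside the CCT ring, with group means as short lines and the floor of 6.58 dotted. Levels are to be compared within a gene only. Ahsa1 and Stip1 drop on both berberine arrays, while Hsp90ab1 stays between 16.70 and 17.00 on all 4.

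HSP90 and its cochaperones contained some of the largest falls on the list: 0 of 3 rose and 2 fell. Hsp90ab1, the constitutive cytosolic HSP90, read 16.77 and 16.70 in control and 16.93 and 17.00 with berberine. Both berberine arrays were slightly higher, by 0.23 on log2 (SE 0.12), which did not pass (adjusted p = 0.185) except after centring on the median (0.80, adjusted p = 0.00976). Stip1, or HOP, the adaptor that joins HSP70 to HSP90, read 14.63 and 14.65 in control and 11.78 and 11.70 with berberine. It fell 7.46-fold (log2 change -2.90, SE 0.12), with adjusted p = 0.000165 and no overlap between the groups. Ahsa1, or AHA1, which stimulates the ATPase of HSP90, read 15.09 and 14.84 in control and 9.43 and 9.37 with berberine. The drop was 47.2-fold (log2 change -5.56, SE 0.14), with adjusted p = 7.13e-05. In the deposited linear intensities the Ahsa1 probe went from 37058 and 23930 to 524 and 566, so the fall is also present in the values as deposited. Neither gene has another probe here.

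DNAJ proteins are the J-domain partners that bring clients to HSP70 and start its ATPase. Of 8 genes measured 2 rose, 1 fell and 5 did not pass, with a median log2 change of 0.038. Over all genes 30.0% were called higher and 18.1% lower, with a median log2 change of 0.20. Dnajb1, or HSP40, the stress-inducible member, read 14.08 and 14.32 in control and 13.95 and 13.90 with berberine. Both berberine arrays were lower, but the log2 change of -0.27 (SE 0.14) did not pass (adjusted p = 0.177), was 0.22 after 75th percentile scaling and 0.48 after centring on the median (adjusted p = 0.0497). Dnaja4 read 10.72 and 10.38 in control and 11.45 and 11.61 with berberine, a 1.97-fold rise (adjusted p = 0.00884) that missed the threshold without berberine replicate 1 (adjusted p = 0.0731) or 2 (0.0891) and in the deposited values (0.177). Dnajb6, which suppresses aggregation of polyglutamine proteins, rose 1.56-fold at its brighter probe (adjusted p = 0.0145) and 1.71-fold at the other (adjusted p = 0.00709). The call of the brighter probe was missed without berberine replicate 1 (adjusted p = 0.114) or 2 (0.104) and in the deposited values (0.145). Dnajb2, a member with ubiquitin-interacting motifs known from neurons, fell 1.33-fold at its brighter probe (adjusted p = 0.0490) and 2.89-fold at the dimmer one (adjusted p = 0.00183). The call of the brighter probe was missed without any 1 of the 4 arrays (adjusted p = 0.0541 to 0.221), in the deposited values (0.409) and after 75th percentile scaling (0.910), and the change turned to 0.23 on log2 after centring on the median. For Dnaja1, Dnaja2, Dnajb4 and Dnajb5 the log2 changes at the brighter or single probe were -0.047, 0.14, 0.12 and -0.060, none past the threshold. After centring on the median, which raises most genes, Dnaja1 (0.70, adjusted p = 0.0164), Dnaja2 (0.92, adjusted p = 0.00634) and Dnajb4 (0.81, adjusted p = 0.0248) were called higher. Dnaja2 also passed after 75th percentile scaling (adjusted p = 0.0420) and with its probes averaged (0.0164).

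BAG proteins, exchange factors that bind the ATPase domain of HSP70, had 3 of 5 genes higher, 1 lower and 1 that did not pass. The 3 include Bag4, for which no direction can be given. Over all genes 30.0% were called higher and 18.1% lower. Bag3, a heat-inducible member that guides clients to autophagy, read 13.06 and 12.71 in control and 14.07 and 14.03 with berberine. It rose 2.25-fold (log2 change 1.17, SE 0.16, adjusted p = 0.00483), with no overlap, and missed the threshold without berberine replicate 1 (adjusted p = 0.0668) or 2 (0.0613). Bag1, which links HSP70 to the proteasome, read 15.91 and 16.01 in control and 16.49 and 16.44 with berberine, a 1.42-fold rise (adjusted p = 0.0268) missed without berberine replicate 1 (adjusted p = 0.162) or 2 (0.133), without control replicate 1 (0.0533) and in the deposited values (0.0795). Bag2, an inhibitor of the ubiquitin ligase CHIP, read 11.49 and 11.12 in control and 10.73 on both berberine arrays. This 1.49-fold fall (adjusted p = 0.0426) was missed without berberine replicate 1 (adjusted p = 0.194) or 2 (0.191), without control replicate 1 (0.0622) and under the other scalings (0.0612 to 0.191). Bag5, which also slows HSP70 refolding, changed by 0.33 on log2 (adjusted p = 0.149), past the threshold only after centring on the median (adjusted p = 0.00899) and without control replicate 2 (0.0474) among the alternatives run.

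Bag4, a silencer of death receptors, was called in opposite directions by its 2 probes. The probe with the higher mean read 11.12 and 10.79 in control and 12.07 and 12.04 with berberine, a 2.15-fold rise (log2 change 1.10, SE 0.16, adjusted p = 0.00516). Its counterpart read 11.74 and 11.87 in control and 10.95 and 11.00 with berberine, and thus fell 1.78-fold (log2 change -0.83, SE 0.13, adjusted p = 0.00609). The values of both groups were apart at each probe, and the average of both probes changed by 0.14 on log2 (adjusted p = 0.384). The rise was also missed without berberine replicate 1 (adjusted p = 0.0684) or 2 (0.0636) and in the deposited values (0.0683). No direction can be given for Bag4, and the count of 16 genes that rose includes it.

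The CCT ring showed the widest contrast on the list. Of 7 subunits measured 3 rose, 1 fell and 3 did not pass, with a median log2 change of 0.42. Cct3, the gamma subunit, read 14.03 and 13.99 in control and 7.04 and 6.94 with berberine. It fell 130-fold (log2 change -7.02, SE 0.12, adjusted p = 5.77e-05), to just above the floor, and in the deposited intensities it went from 17841 and 13472 to 103 and 122. Tcp1, the alpha subunit, moved the other way, from 12.71 and 12.62 to 14.05 and 14.13, a 2.70-fold rise (log2 change 1.43, SE 0.12, adjusted p = 0.00113). In the assembled chaperonin every subunit is present in equal number, so Cct3 and Tcp1 are partners of the same particle.

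The remaining CCT subunits were higher or did not pass. Cct4, the delta subunit, read 15.86 and 15.89 in control and 16.55 and 16.65 with berberine, a 1.65-fold rise (adjusted p = 0.00863) missed without berberine replicate 1 (adjusted p = 0.0721) or 2 (0.0858). Cct8, the theta subunit, read 16.49 and 16.68 in control and 17.23 and 17.14 with berberine, a 1.52-fold rise (adjusted p = 0.0206). That call was missed without berberine replicate 1 (adjusted p = 0.146) or 2 (0.110), without control replicate 1 (0.0506) and in the deposited values (0.102). Cct5, the epsilon subunit, had a log2 change of 0.38 (adjusted p = 0.0880) that passed after centring on the median (adjusted p = 0.00476) and after 75th percentile scaling (0.0158). Cct7, the eta subunit, had 0.42 (adjusted p = 0.291), with control arrays at 16.90 and 17.72, and passed without control replicate 2 (0.83, adjusted p = 0.0222). Cct2, the beta subunit, read 17.38 and 17.10 in control and 17.15 and 17.26 with berberine, with overlapping groups and a log2 change of -0.034 (adjusted p = 0.875).

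**Figure D3:**
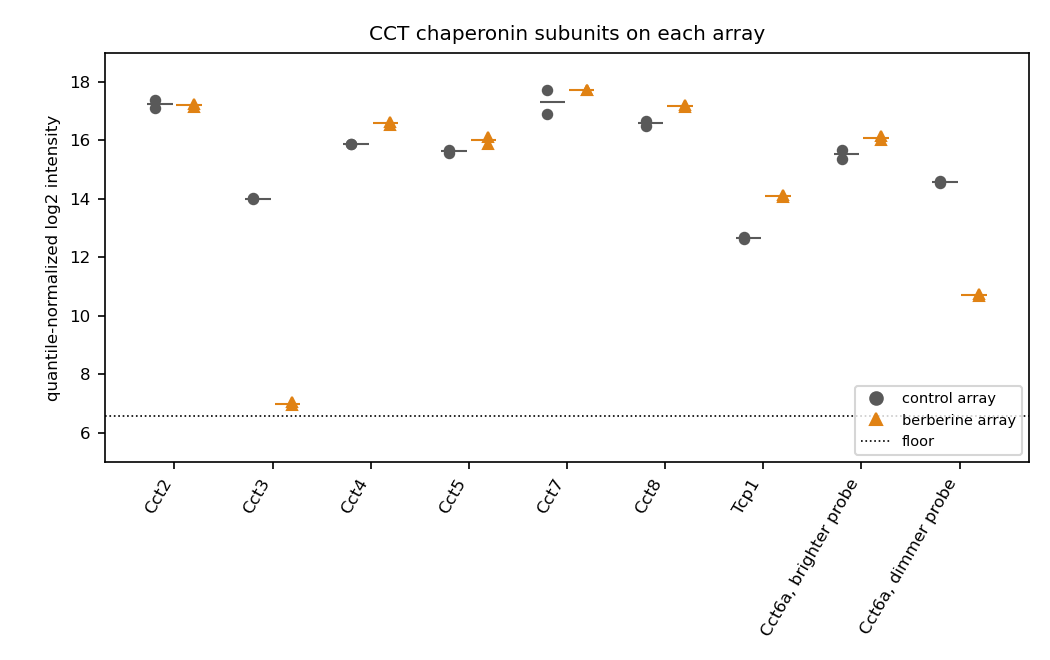
Quantile-normalized log2 intensity of CCT subunits on each array, with group means as short lines and the floor of 6.58 dotted. Cct3 falls to about the floor on both berberine arrays while Tcp1, Cct4 and Cct8 rise; the 2 probes of Cct6a, the zeta subunit, go opposite ways.

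Large falls on this array can belong to a probe and not to a gene's other probe. Cct6a, the zeta subunit, chosen here after its values were seen, has 2 probes. The brighter read 15.68 and 15.38 in control and 16.02 and 16.14 with berberine, a log2 change of 0.55 (adjusted p = 0.0413). The dimmer read 14.63 and 14.55 in control and 10.68 and 10.75 with berberine, so this probe fell 14.7-fold (-3.88 on log2, adjusted p = 9.92e-05). Hsbp1, which encodes a small protein that binds heat shock factor trimers, was also looked at after its values were seen: its brighter probe had a log2 change of 0.39 (adjusted p = 0.101) and its dimmer one fell 4.70-fold (adjusted p = 0.000449). Over all 2250 genes with several probes, 12.5% had probes called in opposite directions, and of the 6 chaperone genes with several probes it was Bag4. Falls of at least 8-fold were seen at 2 members, Cct3 and Ahsa1, against 2.88% of all genes. Both probes carry names that start with mMC. Among control signals above log2 10, a drop of 8-fold or more was seen at 9.91% of mMC probes, against 5.85% of those whose names start with PH_mM and 5.22% of those that start with mMR. Cct3, Ahsa1, Stip1, Hspb8, Hspa2, Hspa4l, Tcp1 and both heat shock factors have 1 probe each, so their changes could not be checked this way.

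**Figure D4:**
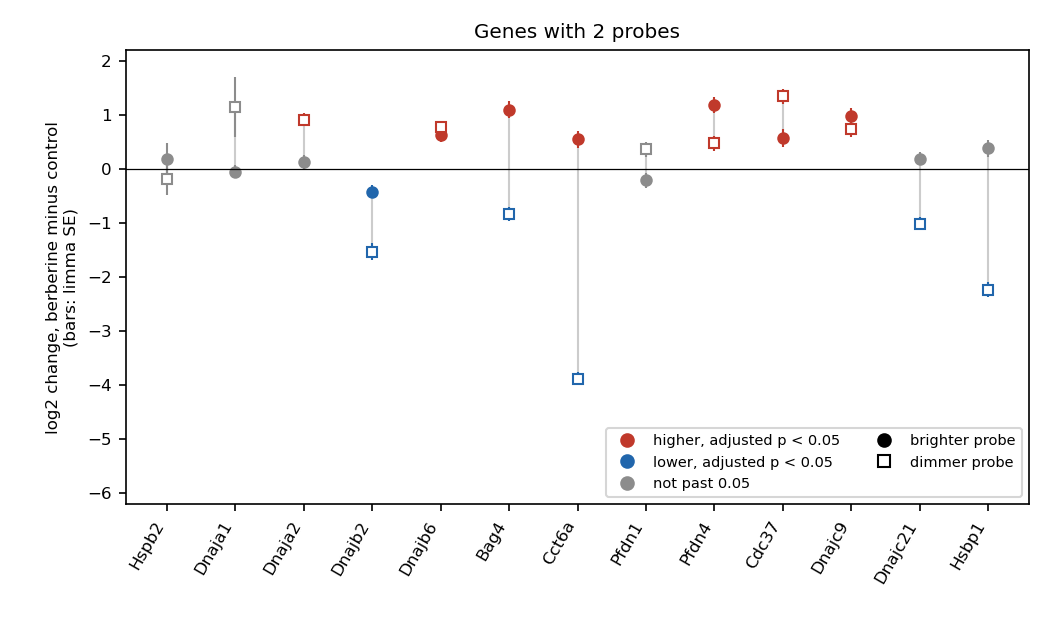
Log2 change with berberine at each probe of the chaperone and cochaperone genes that have 2 probes, with limma standard errors as bars; filled circles are the brighter probe and open squares the dimmer. The probes of Bag4 and Cct6a are called in opposite directions, while those of Dnajb6, Dnajb2, Pfdn4, Cdc37 and Dnajc9 are called in the same direction.

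Of the members with several probes, Dnajb6 and Dnajb2 were called alike at both. For Dnaja2 the dimmer probe rose 1.88-fold, from 11.89 and 11.82 to 12.76 and 12.77 (adjusted p = 0.00390), while the brighter did not pass (adjusted p = 0.418). The dimmer Dnaja1 probe read 8.48 and 10.17 in control and 10.47 on both berberine arrays, so its log2 change of 1.14 (SE 0.55, adjusted p = 0.155) rests on control replicate 1. The dimmer Hspb2 probe was under the floor in both groups.

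Other genes of the folding network also went both ways. Among the remaining CCT genes and prefoldin, which passes new actin and tubulin to CCT, 3 of 7 measured rose and 2 fell, with a median log2 change of 0.33. The prefoldin subunits split: Pfdn4 rose 2.29-fold (adjusted p = 0.00333), while Pfdn2 fell 2.58-fold (adjusted p = 0.00571) and Pfdn5 fell 2.38-fold (adjusted p = 0.00145). Pfdn4 was missed without berberine replicate 2 (adjusted p = 0.0537), and Pfdn2 without berberine replicate 1 (0.0739) or 2 (0.0567) and after centring (0.0637). Cct6b, a testis form of the zeta subunit, rose 1.48-fold (adjusted p = 0.0296). That call was missed in the deposited values (adjusted p = 0.923) and after 75th percentile scaling (0.194). It was also missed without any 1 of the 4 arrays, with log2 changes of 0.47 to 0.66.

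Among HSP90 cochaperones outside the list, 5 of 12 rose and 3 fell, with a median of 0.17. Tomm34, which binds HSP70 and HSP90 on the way to mitochondria, fell 12.3-fold, from 10.87 and 10.57 to 7.03 and 7.17 (adjusted p = 0.000193). Chordc1, which binds HSP90, rose 1.67-fold (adjusted p = 0.00764) and Cdc37l1, a relative of the kinase cochaperone Cdc37, rose 2.01-fold (adjusted p = 0.0123). Ttc4, a TPR protein, fell 1.71-fold (adjusted p = 0.0144). Without berberine replicate 1 or 2 the last 3 missed the threshold, with adjusted p = 0.0799 and 0.0775 for Chordc1, 0.114 and 0.0800 for Cdc37l1 and 0.0916 and 0.116 for Ttc4. Cdc37l1 also missed it in the deposited values (0.0674), and Ttc4 after centring (0.259) and after 75th percentile scaling (0.116).

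Among HSP70 cochaperones outside the list, 3 of 13 rose and 4 fell, with a median of -0.16. Stub1, or CHIP, the ubiquitin ligase that Bag2 inhibits, rose 3.89-fold, from 7.71 and 8.21 to 9.91 and 9.94 (adjusted p = 0.00181). Dnajc2, a ribosome-bound J protein, fell from 12.18 and 11.59 to 6.70 and 6.50 (adjusted p = 0.000193), and no fold is given because the berberine values lie at the floor. Dnajc5, a J protein of secretory vesicles, fell 3.88-fold (adjusted p = 0.000494). Dnajc9, which handles histones, rose 1.99-fold at its brighter probe (adjusted p = 0.00511) and 1.67-fold at the other (adjusted p = 0.0140), and the first call was missed without berberine replicate 1 (adjusted p = 0.0677) or 2 (0.0519).

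The array scaling shifts the changes, by different amounts for different genes. Over all probes, quantile-normalized changes had a median of 0.17 on log2. Without further scaling it was -0.048, with median centring 0.52 and with 75th percentile scaling 0.26. The median of the 40 chaperone genes was 0.40, 0.34, 0.90 and 0.64 in the same order. Over all genes the median was 0.20, -0.017, 0.55 and 0.29 in that order. HSP70 medians ran from 0.24 to 0.80, and those of small heat shock genes from 0.34 to 0.90. BAG medians ran from 0.50 to 1.24 and CCT medians from 0.42 to 1.14. All of these were above the median of all genes under each scaling. The DNAJ median (0.038 to 0.76) was below that of all genes after quantile normalization and above it under the other scalings. The HSP90 group was at -2.90 to -2.29, the values of Stip1, while Hsp90ab1 was at 0.23 to 0.80. For the exchange factors the range was 1.43 to 2.13 and for the heat shock factors 1.42 to 1.99. Calls followed the scaling: 9 members were called higher and 5 lower in the deposited values, and 26 higher and 4 lower after centring. Relative to the median of all probes under each scaling, Hsf1, Hsf2, Hspa2, Hspa4l and Tcp1 were higher and Cct3, Ahsa1, Stip1 and Hspb8 lower in every case.

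**Figure D5:**
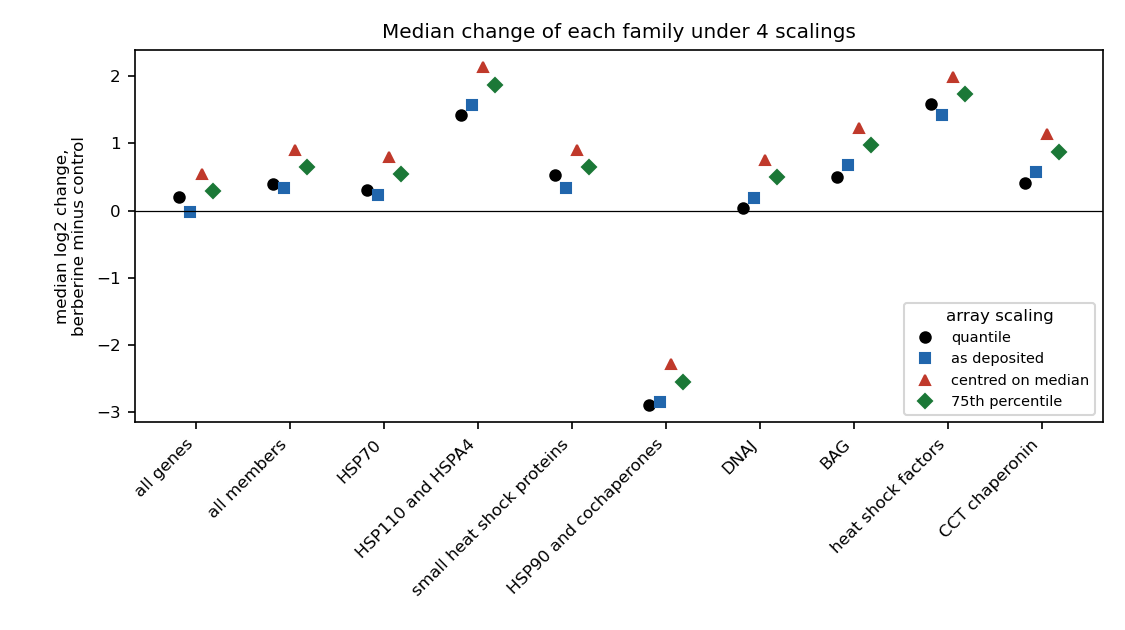
Median log2 change of all genes, of the 40 chaperone genes and of each family under 4 ways of scaling the arrays. The order of the families is kept broadly, and centring on the median shifts every family upward. The median of the HSP90 group stays below 0 throughout, at the values of Stip1. Hsp90ab1, not drawn alone, was above 0 under each scaling.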

How the data were processed

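The deposited table holds linear probe intensities of 26423 probes on 4 arrays (Cy5, per the labels). For scanner, background correction and scaling by the authors, the sources used here give nothing, and the number of arrays limits the precision. Median deposited intensity was 423 and 350 in control and 237 and 280 with berberine. Probes at or under 0 (15) were left out, and 26408 were quantile-normalized on log2 and fitted with limma 3.58.1 (R 4.3.3; lmFit, eBayes), with Benjamini-Hochberg adjustment over all probes. Exact permutation of 2 against 2 arrays cannot go below a two-sided p of 0.333, so significance comes from limma's moderated variance (residual degrees of freedom 2, prior 2.89). One variance serves both groups: above log2 10 in control, the arrays of a group differed by a median of 0.26 in control and 0.088 with berberine. The platform annotation named 20377 probes, each with 1 symbol, matched to the list without regard to case; 6046 are unnamed here. A gene is represented by its probe with the highest mean. Folds against a group under the floor are lower bounds. Per-array values are given for 11 fixed genes (3 of them not analysed here) and for members called with at least a 2-fold change, and others were added for description; from each list of other pathway genes, up to 4 with the smallest p were taken. The members and lists were chosen with earlier results of these data known. Replicate numbers do not pair the samples per the labels, and no batch is named. Alternatives covered scaling, log2(value + 16), a dim-probe filter, the prior, a replicate block, each array left out, averaged probes and an added 2-fold limit.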

Additional observations from a re-analysis of the deposited data

How the results depend on the processing

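The 16 members called higher became 26 after centring on the median, 9 in the deposited values, 9 with at least a 2-fold change added and 5 to 18 when each array was left out. The 6 called lower became 4 to 6 in all settings run. With the replicate block 19 were higher and 6 lower, with Hspa1b (adjusted p = 0.0393), Hspa4 (0.0347), Hspb1 (0.0333) and Hspb3 (0.0421) now past the threshold and Dnajb2 (0.0876) no longer; same-numbered arrays did not deviate together (correlation of deviations 0.0035, across probes). All probes called, 11838, became 6687 in the deposited values and 4339 to 10772 with arrays left out. Of the 22 calls, 13 were missed without berberine replicate 1 and 13 without berberine replicate 2, and the lone array was then assumed to vary like the control group; the cause was not tested. Of the 22, 1 turned in sign, Dnajb2, at 0.23 after centring. Turns of sign among genes that did not pass were, after centring, Hspa1a (0.10), Hspa4 (0.18), Dnaja1 (0.70), Dnajb1 (0.48), Dnajb5 (0.070) and Cct2 (0.45); after 75th percentile scaling, Dnaja1 (0.44), Dnajb1 (0.22) and Cct2 (0.19); in the deposited values, Hspa12b (-0.14), Hspb2 (-0.30) and Dnaja1 (0.14); and with probes averaged, Dnaja1 (0.55). With arrays left out, log2 changes ran from -0.72 to 0.10 for Hspa1a, -0.12 to 0.30 for Hspa12b, -0.19 to 0.57 for Hspb2, -0.026 to 0.27 for Dnajb4, -0.32 to 0.20 for Dnajb5 and -0.17 to 0.11 for Cct2. Among the 12 other named genes in the alternatives, no sign turned. Probes near the floor (Hspa1a, Hspb2, Hspb3) carry little signal over background.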
